A study of Mus musculus with 15 samples.

Results

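Mouse submandibular glands taken 30 days after irradiation were compared with glands taken 4 days after irradiation, neither having received vesicles. The comparison holds 6 of the 15 RNA-seq libraries of the series, the 3 labelled IR_30d and the 3 labelled IR_4d, which were chosen by these labels alone. All mice of the series were wildtype C57BL/6 males aged 8 to 10 weeks by the labels. The IR_4d and IR_30d mice had received 15 Gy aimed at the gland region and differed in the day of collection. The other groups, with 3 libraries each, were nontreated glands (NT), whose day of collection is not given, and irradiated glands of the same days that were also injected weekly with extracellular vesicles from day 1 (IR_iEV_4d and IR_iEV_30d). The series title names mesenchymal stem cells as the source of the vesicles, and no vehicle-injected group is named. A later day after irradiation also means an older mouse, so time after irradiation and age cannot be told apart here. The labels do not say that each library is a separate mouse, so the p-values measure the spread between these libraries, which may be technical.

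The submandibular gland makes saliva in acinar cells, which secrete water and protein, and modifies it in ducts that reabsorb salt. In male mice a part of the duct system, the granular convoluted tubule, stores kallikreins and epidermal growth factor in an androgen-dependent manner. Irradiation breaks DNA and activates p53, which induces genes of cell cycle arrest and cell death, and irradiated tissues can also produce interferon, which acts through STAT and IRF proteins on a shared set of antiviral genes.

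Total counts ran from 29082798 to 41367972 over the 6 libraries, and from 29082798 to 52201098 over all 15. Levels are given as CPM, the usual count scaled to library size and composition, in the order of replicates 1, 2 and 3, and changes as log2 of IR_30d over IR_4d ± standard error. A gene is said to have risen or fallen where edgeR's quasi-likelihood test gave a Benjamini-Hochberg adjusted p under 0.05 over 16042 genes.

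The IR_4d libraries did not hold submandibular tissue alone. The 4 sublingual gland markers Muc19, Dcpp1, Dcpp2 and Dcpp3 summed to 8207, 3015 and 29.97 CPM in IR_4d and to 2.294, 38.49 and 2.216 CPM in IR_30d. IR_4d replicates 1 and 2 stood far above the other 4 libraries, and replicate 3 lay within the IR_30d range. Muc19, the main mucin of the sublingual gland, was at 764, 453 and 1.01 CPM in IR_4d and at 0.423, 0.172 and 0.286 CPM in IR_30d, and with this spread its difference did not pass (adjusted p = 0.198). None of the 4 sublingual markers was at 0 in any of these 6 libraries. Bpifa2, a secretory protein of the parotid gland, was at 4911, 193 and 429 CPM in IR_4d and 8.64, 296 and 14.7 CPM in IR_30d. The 14 adipose markers summed to 155.8, 122 and 354.9 CPM in IR_4d and to 149.9, 176.7 and 213.3 CPM in IR_30d, so that IR_4d replicate 3 was the highest of the 6. The 7 parotid markers together summed to 21430 to 26480 CPM in IR_4d and 20850 to 22100 CPM in IR_30d. Their mean log2 CPM was 6.687, 2.433 and 4.53 in IR_4d and 2.249, 4.24 and 2.288 in IR_30d. All 6 tested parotid markers had a negative change, with a median of -3.58, and 0 passed. Adipoq, which encodes the fat cell hormone adiponectin, was at 1.83, 0.272 and 11.1 CPM in IR_4d and 0.755, 2.38 and 3.3 CPM in IR_30d. The results below were therefore also computed with each library's sublingual and adipose marker levels as covariates. A second fit left out the 6 of all 15 libraries that were high in sublingual markers. This leaves IR_4d with replicate 3 alone and IR_iEV_4d with replicate 1 alone. In that second fit each lone library is assumed to vary as the other groups do. These 2 fits are called the covariate fit and the reduced fit. Neither takes parotid marker levels into account.

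**Figure D1:**
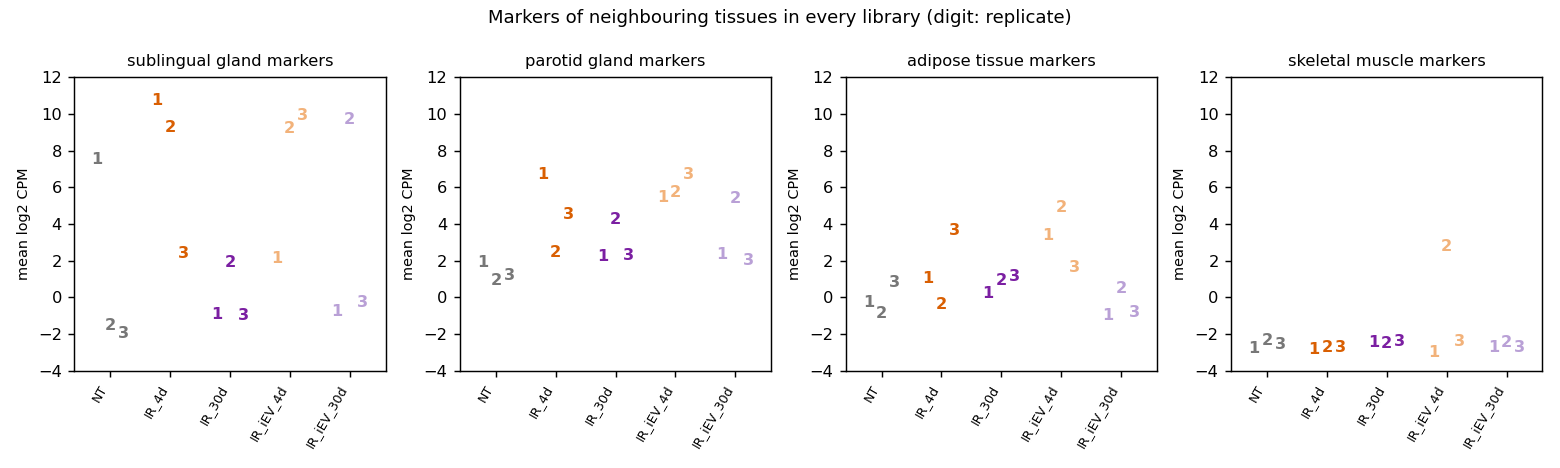
Mean log2 CPM of the sublingual, parotid, adipose and skeletal muscle markers in each of the 15 libraries, by group, with the digit giving the replicate. IR_4d replicates 1 and 2 lie high in the sublingual panel, IR_4d replicate 3 lies highest of the 6 compared libraries in the adipose panel, and the muscle panel is flat over these 6.

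From day 4 to day 30 more genes rose than fell, and the rises were larger. Of the genes tested, 1092 (6.81%) changed, 772 rose (4.81%) and 320 fell (1.99%). The median change was 0.92 among the genes that rose, -0.56 among those that fell and -0.01 over all genes tested. The change was over 1 on the log2 scale for 353 of the genes that rose and under -1 for 56 of those that fell. In 1089 of the 1092 the IR_30d and IR_4d values did not overlap, against 31.5% of all genes tested. The covariate fit called 525 genes and the reduced fit 374, of which 458 and 299 were also called here. Leaving out any 1 of the 6 libraries gave 536 to 718 calls. The lists with the most members that rose were those of interferon-stimulated genes, macrophage markers and granular convoluted tubule products, and the list with the most members that fell was that of p53 targets.

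**Figure D2:**
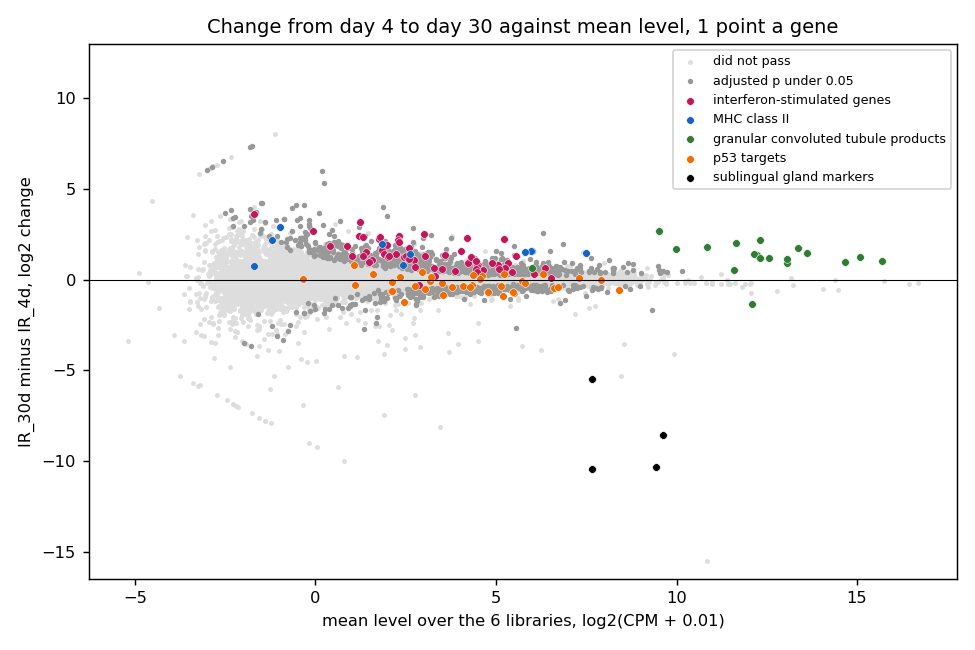
Log2 change from IR_4d to IR_30d against the mean level over the 6 libraries on a log2 scale, 1 point for each of 16042 genes, with the genes that passed the test in dark grey and members of 5 lists in colour. Interferon-stimulated, MHC class II and tubule genes lie mostly above 0, p53 targets mostly below, and the sublingual markers lie far below 0 without having passed.

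Most interferon-stimulated genes rose. Of 61 listed genes 58 were in the deposited counts under the listed symbols, and all 58 passed the filter on low counts. Of these 52 rose and 0 fell, beside 4.81% of all genes that rose. Their median change was 1.28, against -0.01 over all genes. The covariate fit called 29 of the 58 and the reduced fit 26, with medians of 1.17 and 1.30. With genes of at least 5 CPM alone, 33 members were tested and 27 rose.

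Ifit3, which encodes an antiviral protein that binds foreign RNA together with other IFIT proteins, was at 2.57, 2.51 and 2.17 CPM in IR_4d and at 13, 12.2 and 15.6 CPM in IR_30d (log2 change 2.49 ± 0.21, adjusted p = 2.42e-06). Every IR_30d library lay above every IR_4d library by a wide margin, with the NT libraries in between at 3.44, 5.82 and 5.18 CPM. Irf7, a transcription factor that amplifies interferon production, stood at 6.92, 6.49 and 5.49 CPM on day 4 and at 27.4, 29.2 and 34.9 CPM on day 30 (log2 change 2.27 ± 0.20, adjusted p = 8.03e-06). Its groups did not overlap either, and the NT libraries held 9.94, 12.9 and 16.9 CPM.

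The OAS enzymes, which sense double-stranded RNA and make an activator of RNase L, moved in the same direction. Oas3 was at 0.414, 0.513 and 0.454 CPM in IR_4d and 3.9, 5.13 and 3.66 CPM in IR_30d (log2 change 3.19 ± 0.35, adjusted p = 4.09e-05). Oas2 went from 1.98, 1.75 and 0.909 CPM to 6.07, 10.6 and 8.39 CPM (log2 change 2.42 ± 0.27, adjusted p = 4.09e-05), and Oas1a from 1.33, 1.36 and 0.909 CPM to 4.38, 5.68 and 6.75 CPM (log2 change 2.22 ± 0.24, adjusted p = 2.69e-05). In all 3 the day 30 libraries were above all day 4 libraries, at low levels throughout.

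Other effectors rose as well. Rtp4, an interferon-induced chaperone of receptors, was at 1.57, 2.57 and 1.54 CPM and then 6.68, 8.12 and 9.27 CPM (log2 change 2.08 ± 0.21, adjusted p = 1.99e-05). Bst2, which tethers budding viruses to the cell surface, was at 6.68, 6.46 and 7.03 CPM and then 13.2, 18.8 and 19.7 CPM (log2 change 1.36 ± 0.14, adjusted p = 2.69e-05). Cmpk2, a mitochondrial nucleotide kinase, rose by 1.92 ± 0.25, Ifit1 by 1.74 ± 0.22 and Ifi206, of the p200 family, by 3.23 ± 0.40 (adjusted p = 1.54e-04, 1.13e-04 and 1.07e-04). Zbp1, a sensor of left-handed nucleic acid that can trigger cell death, rose by 2.40 ± 0.36 (adjusted p = 5.87e-04), as did Ifi209, another p200 gene, by 2.37 ± 0.45 (adjusted p = 0.00402). In the reduced fit Zbp1 (adjusted p = 0.0632) and Ifi209 (adjusted p = 0.107) did not pass. Ifitm3, which blocks viral entry at membranes, rose by 0.93 ± 0.13 (adjusted p = 4.34e-04, and 0.0507 in the reduced fit).

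The mean of NT lay between the means of the 2 irradiated groups for 53 of the 58 genes. The median of IR_4d minus NT was -0.39 and that of IR_30d minus NT 0.74; both share libraries with the comparison of days and are given beside it as values. In IR_30d against NT, where 511 genes (3.19%) were higher, 21 of the 58 were higher. In IR_4d against NT 8 of the 58 were lower and 0 higher, with the share of all genes not given here.

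Many of these genes are bound by interferon-activated factors at a short promoter element, the interferon-stimulated response element, searched here as GAAANNGAAA on either strand, with N for any base. RefSeq promoter windows (build GRCm38.p6, 250 bases before to 50 after the start site) were matched by symbol to 41 of the 58 genes, and 18 of these 41 (43.9%) held the letters. A gene counted where any of its windows held a match. Among genes with a window, the share was 11.6% of 579 that rose, 1.18% of 255 that fell and 3.86% of 12155 tested. Counted by window instead, it was 3.44% of all 32851 windows. Windows of 4 interferon-stimulated genes that rose are shown because they show where the element lies, with its letters in capitals on the strand of the gene and overlapping matches merged. The windows are Ifit3 (chr19:34583279-34583578, plus strand), Ifit1 (chr19:34640639-34640938, plus strand), Bst2 (chr8:71537423-71537722, minus strand) and Oas1a (chr5:120907476-120907775, minus strand).
Ifit3: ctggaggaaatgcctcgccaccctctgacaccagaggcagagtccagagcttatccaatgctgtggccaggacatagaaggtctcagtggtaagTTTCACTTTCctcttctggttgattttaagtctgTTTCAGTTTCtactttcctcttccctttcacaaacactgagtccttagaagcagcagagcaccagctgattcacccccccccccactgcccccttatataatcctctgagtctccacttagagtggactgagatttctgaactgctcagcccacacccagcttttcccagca
Ifit1: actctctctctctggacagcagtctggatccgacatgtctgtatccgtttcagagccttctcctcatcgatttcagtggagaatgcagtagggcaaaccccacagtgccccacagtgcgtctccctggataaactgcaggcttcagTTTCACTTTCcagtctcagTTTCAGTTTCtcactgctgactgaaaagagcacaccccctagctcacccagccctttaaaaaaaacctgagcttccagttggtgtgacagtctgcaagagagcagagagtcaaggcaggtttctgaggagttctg
Bst2: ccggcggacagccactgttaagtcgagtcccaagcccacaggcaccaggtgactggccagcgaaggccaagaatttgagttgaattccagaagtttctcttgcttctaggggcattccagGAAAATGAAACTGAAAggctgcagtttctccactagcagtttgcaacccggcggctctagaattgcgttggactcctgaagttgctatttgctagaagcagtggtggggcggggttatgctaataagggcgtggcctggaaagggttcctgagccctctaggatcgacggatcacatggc
Oas1a: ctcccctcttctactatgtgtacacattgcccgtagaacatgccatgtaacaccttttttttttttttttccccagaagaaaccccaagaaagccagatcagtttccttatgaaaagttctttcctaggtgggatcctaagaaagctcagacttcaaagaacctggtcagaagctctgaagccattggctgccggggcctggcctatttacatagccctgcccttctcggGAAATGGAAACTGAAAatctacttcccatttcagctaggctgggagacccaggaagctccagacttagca
The matches began 156 and 122 bases before the start in Ifit3, 104 and 85 in Ifit1, 130 and 124 in Bst2, and 20 and 14 in Oas1a. The windows of Irf7 and Cmpk2 held no match. A match describes the sequence and is not evidence of binding in these glands.

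Guanylate-binding proteins and immunity-related GTPases, which interferon gamma induces strongly and which attack vacuoles of pathogens, rose alongside. Of 16 tested members 11 rose and 0 fell, with a median change of 1.16, beside 4.81% of all genes. Gbp2 was at 4.7, 4.44 and 4.37 CPM in IR_4d and 9.73, 16.6 and 10.7 CPM in IR_30d (log2 change 1.45 ± 0.20, adjusted p = 3.46e-04), and Gbp3 at 2.66, 2.9 and 2.59 CPM and 7.07, 8.89 and 8.0 CPM (log2 change 1.55 ± 0.21, adjusted p = 2.62e-04). Both were higher in every day 30 library. Irgm2 rose by 1.18 ± 0.21 (adjusted p = 0.0025), and Gbp6 by 1.83 ± 0.25 (adjusted p = 3.00e-04, and 0.181 in the reduced fit). The count was 7 in the covariate fit, 5 in the reduced fit, 5 of 8 with genes of at least 5 CPM, 7 without IR_4d replicate 1 and 6 without IR_30d replicate 2. All 9 members with a RefSeq window held GAAANNGAAA.

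**Figure D3:**
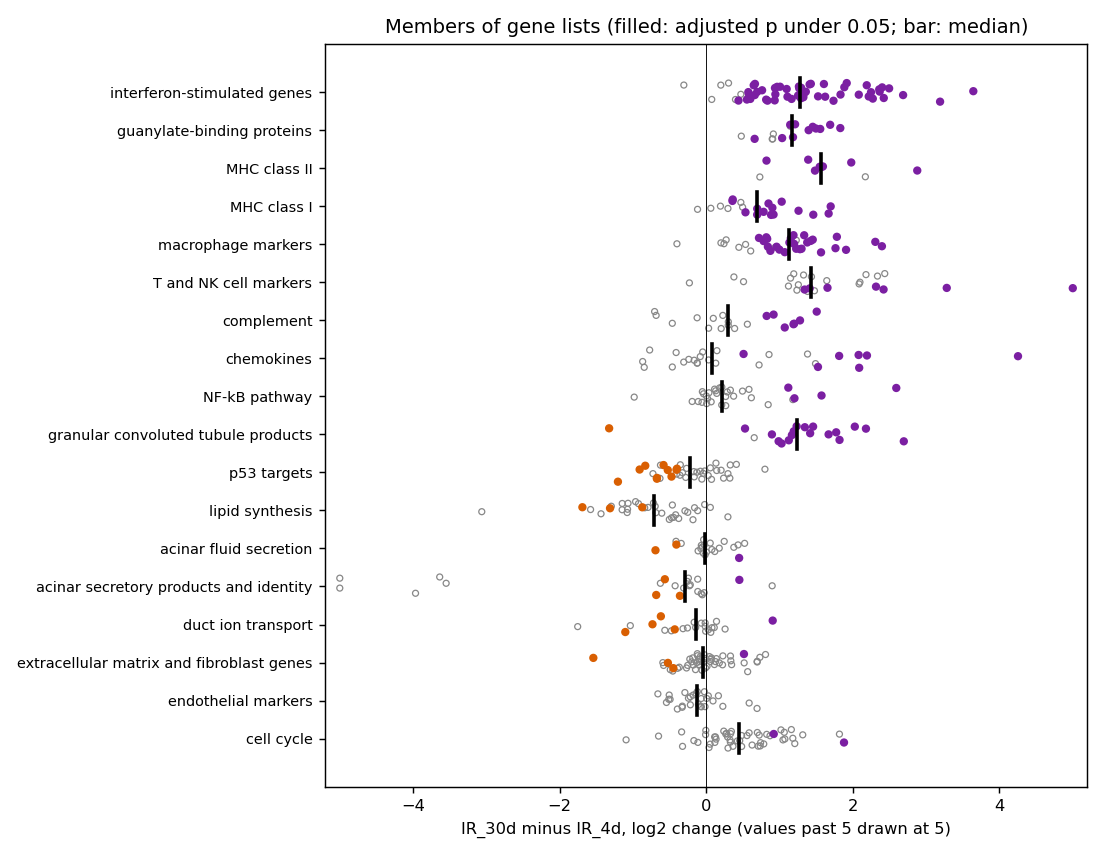
Log2 change from IR_4d to IR_30d of each tested member of 18 gene lists, filled in purple where it rose, in orange where it fell and open where it did not pass, with the list's median as a black bar. The interferon, MHC, macrophage and tubule lists lie to the right of 0, and the p53 list, with a median of -0.22, holds 10 genes that fell.

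Genes of antigen presentation to CD4 T cells rose together. Of 10 tested MHC class II genes 8 rose and 0 fell, with a median of 1.56, beside 4.81% of all genes. H2-Eb1, a class II beta chain, was at 26.4, 31.9 and 26.3 CPM in IR_4d and 73.3, 90.2 and 83.7 CPM in IR_30d (log2 change 1.55 ± 0.10, adjusted p = 1.85e-07). H2-Aa, an alpha chain, was at 31.5, 32.8 and 31.6 CPM and 82, 108 and 95.4 CPM (log2 change 1.57 ± 0.12, adjusted p = 6.24e-07), and Cd74, the invariant chain that guides class II molecules, at 93.2, 99.4 and 91.1 CPM and 225, 304 and 264 CPM (log2 change 1.48 ± 0.11, adjusted p = 1.03e-06). For each the day 30 libraries were all higher. The NT means of all 10 tested genes lay between the means of the 2 days, and H2-Eb1 was at 48.9, 55 and 54.5 CPM in NT. The list's median was -0.88 for IR_4d minus NT and 0.65 for IR_30d minus NT. Ciita, the activator on which class II transcription depends, was at 1.33, 1.87 and 1.08 CPM and 4.89, 6.6 and 5.48 CPM (log2 change 1.98 ± 0.24, adjusted p = 1.07e-04), also without overlap. The covariate fit called 7 of the class II genes and the reduced fit 6.

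Class II promoters carry a conserved Y box, searched as CTGATTGG on either strand, a motif added after the other results had been seen. Among genes with a window, it was found in 3 of 7 of class II (42.9%), 7 of 17 of the MHC class I list (41.2%) and 6.3% of all genes tested. The windows of H2-Aa (chr17:34287774-34288073, minus strand) and H2-Eb1 (chr17:34305617-34305916, plus strand) are shown because these genes rose and their windows hold a match, given in capitals.
H2-Aa: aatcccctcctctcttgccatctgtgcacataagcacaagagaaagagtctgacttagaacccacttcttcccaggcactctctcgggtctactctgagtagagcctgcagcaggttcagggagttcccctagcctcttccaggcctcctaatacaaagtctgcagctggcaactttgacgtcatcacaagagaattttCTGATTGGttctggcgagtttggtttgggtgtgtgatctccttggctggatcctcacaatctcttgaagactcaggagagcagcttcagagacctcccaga
H2-Eb1: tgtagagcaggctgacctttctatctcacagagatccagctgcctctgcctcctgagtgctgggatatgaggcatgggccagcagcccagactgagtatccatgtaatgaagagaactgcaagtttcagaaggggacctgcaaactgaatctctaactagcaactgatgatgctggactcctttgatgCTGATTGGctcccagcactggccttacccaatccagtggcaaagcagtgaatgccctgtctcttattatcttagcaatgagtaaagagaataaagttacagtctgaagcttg
The match began 51 bases before the start in H2-Aa and 62 before it in H2-Eb1. The window of H2-DMb1, which also rose, held no match.

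MHC class I genes, which display peptides to CD8 T cells, rose by less. Of 21 tested genes of class I chains, peptide transport and the immunoproteasome, 15 rose and 0 fell, with a median of 0.70, beside 4.81% of all genes that rose. H2-K1 was at 336, 327 and 288 CPM in IR_4d and 511, 650.0 and 553 CPM in IR_30d (log2 change 0.85 ± 0.10, adjusted p = 1.07e-04). B2m, the light chain common to class I molecules, was at 184, 173 and 157 CPM and 266, 326 and 289.6 CPM (log2 change 0.78 ± 0.11, adjusted p = 5.28e-04), and Tap1, of the peptide transporter, at 19.1, 17.4 and 17.4 CPM and 32, 34.2 and 33.2 CPM (log2 change 0.88 ± 0.11, adjusted p = 1.07e-04). The day 30 libraries were all above the day 4 libraries in these genes. Psmb8, a catalytic subunit of the immunoproteasome, rose by 1.26 ± 0.17 (adjusted p = 3.00e-04). H2-Q6 rose by 1.46 ± 0.21 (adjusted p = 5.28e-04), but class I genes resemble each other closely and reads may have been split among them. Of the 21, 10 were called without IR_4d replicate 1, 9 without IR_30d replicate 2, and 10 in the covariate fit.

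Macrophage markers rose in most cases. Of 35 tested markers 26 rose and 0 fell, with a median of 1.13, beside 4.81% of all genes that rose. In whole tissue more cells of a type and more RNA per cell cannot be told apart, here and for the other cell type markers. Mpeg1, a pore-forming protein of phagocytes, was at 20.4, 18.2 and 18.3 CPM in IR_4d and 43.3, 59 and 53.5 CPM in IR_30d (log2 change 1.45 ± 0.12, adjusted p = 2.70e-06). Ctss, the cathepsin that trims the invariant chain, was at 16.9, 14.5 and 16.8 CPM and 38.6, 53.4 and 50.3 CPM (log2 change 1.57 ± 0.14, adjusted p = 3.12e-06), and Itgax, the CD11c integrin chain, at 3.64, 2.57 and 2.27 CPM and 9.03, 9.61 and 10.6 CPM (log2 change 1.78 ± 0.18, adjusted p = 1.88e-05). None of these groups overlapped. NT means lay between the means of the 2 days for 25 of the 35 markers. Clec7a, a receptor for fungal glucans, rose by 2.40 ± 0.31 and Siglec1, a sialic acid receptor of tissue macrophages, by 1.43 ± 0.17 (adjusted p = 1.43e-04 and 1.07e-04). The reduced fit called 17 of the 35 markers.

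Retnla, a secreted protein of alternatively activated macrophages, had the largest rise among the genes named by size, which have a mean of at least 2 CPM over the 6 libraries. It was at 0.384, 0.272 and 0.664 CPM in IR_4d, 5.77, 6.91 and 8.0 CPM in IR_30d and 2.84, 2.14 and 3.59 CPM in NT (log2 change 3.98 ± 0.33, adjusted p = 2.32e-06). The day 4 libraries were the lowest of these 3 groups and the day 30 libraries the highest. Lyz1, a lysozyme, rose from 0.739, 0.453 and 0.385 CPM to 4.53, 4.47 and 3.12 CPM (log2 change 2.92 ± 0.36, adjusted p = 1.07e-04).

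Complement genes made by phagocytes and epithelium rose in part. Of 19 tested members 7 rose and 0 fell, beside 4.81% of all genes that rose, with a median of 0.30, and of 0.51 in the covariate fit. Among those that rose, C1qa, C1qb, C1qc and C3ar1 are also on the macrophage list and were counted there. Cfb, C2 and C4b are not. The C1q chains, which start the classical pathway, rose by 1.19 ± 0.13 for C1qa, 1.20 ± 0.12 for C1qb and 1.07 ± 0.13 for C1qc (adjusted p = 2.69e-05, 1.69e-05 and 1.24e-04). Cfb, factor B of the alternative pathway, was at 4.52, 4.38 and 4.51 CPM in IR_4d and 9.76, 14.4 and 13.9 CPM in IR_30d (log2 change 1.51 ± 0.16, adjusted p = 2.26e-05). The day 30 libraries were all higher, while the day 4 libraries lay close to those of NT at 4.33, 4.24 and 4.16 CPM. The reduced fit called 4 of the 19.

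Markers of T and NK cells were low, and 25 of 36 listed passed the filter. Of these 7 rose and 0 fell, beside 4.81% of all genes that rose. Their median was 1.43, and stayed the same with Ccr7 set at its bound. The median of IR_4d minus NT was -1.23 and that of IR_30d minus NT 0.35. In IR_30d against NT 0 of the 25 were higher, beside 3.19% of all genes. Il2rb, a chain of the interleukin-2 and interleukin-15 receptors, was at 2.63, 2.93 and 1.82 CPM in IR_4d and 6.55, 6.6 and 6.54 CPM in IR_30d (log2 change 1.41 ± 0.23, adjusted p = 0.00126). Lck, the kinase of the T cell receptor, was at 0.237, 0.121 and 0.245 CPM and 0.785, 1.12 and 1.12 CPM (log2 change 2.32 ± 0.45, adjusted p = 0.00422), and Gzmb, a protease of killer cells, at 0.591, 0.815 and 0.35 CPM and 1.87, 1.89 and 1.82 CPM (log2 change 1.65 ± 0.36, adjusted p = 0.00914). The groups of all 3 were apart. Ccr7, the homing receptor of lymph node-bound cells, had no count in any IR_4d library and 0.453, 0.803 and 0.467 CPM in IR_30d, at least 18.3-fold higher than a floor of 3 counts over the IR_4d group (adjusted p = 0.00419). In the reduced fit 1 of the T and NK markers was called, and Lck (adjusted p = 0.185), Gzmb (adjusted p = 0.0547) and Ccr7 (adjusted p = 0.139) did not pass. The count was 11 with DESeq2, and 4 without each of IR_4d replicates 2 and 3 and IR_30d replicate 2. The filter can keep such low genes through the groups where they are higher. With no filter on low counts 7 of 36 rose, and with genes of at least 5 CPM alone 0 were left to test. Of 5 tested B cell markers 0 passed, while Ighm, the heavy chain of IgM, rose by 1.22 ± 0.18 (adjusted p = 5.87e-04).

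A minority of chemokines rose. Of 26 tested 7 rose and 0 fell, beside 4.81% of all genes that rose. The median was 0.08, and ran from -0.04 without IR_30d replicate 2 to 0.80 without IR_4d replicate 3. Ccl9, a monocyte attractant, was at 2.75, 1.45 and 2.52 CPM in IR_4d and 6.98, 8.35 and 8.26 CPM in IR_30d (log2 change 1.81 ± 0.22, adjusted p = 1.07e-04), with no overlap. Ccl6 rose by 2.09 ± 0.30 (adjusted p = 6.64e-04, and 0.261 in the reduced fit). Cxcl9, which interferon gamma induces and which attracts T cells, was at 0.355, 0.0906 and 0.419 CPM and 0.574, 1.89 and 1.48 CPM (log2 change 2.19 ± 0.59, adjusted p = 0.0325). Its call was lost without any 1 of the IR_4d libraries or of IR_30d replicates 2 and 3 (adjusted p up to 0.148), with limma-voom, with the replicate number as a block, and in the reduced fit (0.457). The list's count was 4 with limma-voom, 2 of 9 with genes of at least 5 CPM, 1 in the reduced fit, 4 without IR_4d replicate 2 or IR_30d replicate 3, and 3 without IR_4d replicate 3 or IR_30d replicate 2.

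The NF-kB genes that changed rose. Of 31 tested 4 rose and 0 fell, beside 4.81% of all genes that rose. The median was 0.21, 0.10 in the reduced fit, and with 1 library left out ran from 0.12 without IR_30d replicate 2 to 0.33 without IR_4d replicate 3. Nfkb2, which encodes the p100 precursor of the noncanonical pathway, was at 40.1, 38 and 38.8 CPM in IR_4d and 84.9, 90.2 and 78.9 CPM in IR_30d (log2 change 1.12 ± 0.10, adjusted p = 6.07e-06). All day 30 libraries were above the NT range as well, which was 31.8, 42.5 and 32 CPM. Lcn2, a secreted protein that withholds iron from bacteria, was at 22, 15.8 and 29.4 CPM in IR_4d and 96.5, 164 and 145 CPM in IR_30d (log2 change 2.59 ± 0.31, adjusted p = 6.27e-04). Its day 4 libraries sat around the NT level of 26.5, 23.8 and 23.3 CPM. Vcam1, an adhesion molecule for leukocytes, rose by 1.20 ± 0.22 (adjusted p = 0.00327, and 0.0545 in the reduced fit, which called 2 of the 31). A fit of the 2 groups alone called 7 of 29.

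Further genes named by the size of their change rose. Spock1, an extracellular proteoglycan, was at 0.355, 0.453 and 1.15 CPM in IR_4d and 7.82, 6.91 and 7.06 CPM in IR_30d (log2 change 3.49 ± 0.58, adjusted p = 0.00248). Its NT libraries held 1.09, 0.723 and 0.24 CPM, so the day 30 libraries stood above both other groups. Sdc3, a cell surface heparan sulfate proteoglycan, rose by 1.21 ± 0.12 (adjusted p = 1.69e-05). Hsd11b1, which regenerates active glucocorticoid, was at 57, 50.4 and 65.4 CPM and 117, 125 and 102 CPM (log2 change 0.99 ± 0.14, adjusted p = 6.70e-04), without overlap. It was the 1 of 16 tested genes of the glucocorticoid list that rose, beside 4.81% of all genes that rose.

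Most products of the granular convoluted tubule rose. Of 19 tested 17 rose and 1 fell, with a median of 1.23, where 4.81% of all genes rose and 1.99% fell. Klk1b26, a kallikrein stored in tubule granules, was at 20138, 19277 and 22331 CPM in IR_4d and 44735, 49822 and 50519.7 CPM in IR_30d (log2 change 1.23 ± 0.17, adjusted p = 4.33e-04). Klk1b22, also known as an EGF-binding protein, was at 5139, 5039 and 5999.6 CPM and 10932, 11674 and 12689.6 CPM (log2 change 1.13 ± 0.17, adjusted p = 6.70e-04). Klk1b21 rose by 1.42 ± 0.19, Klk1b3 by 1.34 ± 0.20 and Klk1b11 by 0.90 ± 0.12 (adjusted p = 4.93e-04, 0.00101 and 3.05e-04). These kallikrein genes are close copies, and how reads were divided among them is not known, so single members are uncertain.

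Egf, epidermal growth factor, was at 36721, 29644 and 38419.9 CPM in IR_4d and 70768, 70836 and 71940.2 CPM in IR_30d (log2 change 1.03 ± 0.21, adjusted p = 0.00864), with all day 30 libraries above NT at 27302, 42009 and 39343 CPM. Crisp1, a cysteine-rich secretory protein, was at 233, 122 and 229.6 CPM and 955, 1511 and 1319 CPM (log2 change 2.69 ± 0.65, adjusted p = 0.0352). The groups were apart, but the call was lost without any 1 of the 6 libraries (adjusted p up to 0.143) with the replicate number as a block, and in both the covariate and the reduced fit. In contrast Klk1, the tissue kallikrein that is made more widely in the ducts, was at 5468, 6804 and 6319.6 CPM in IR_4d and 2978, 2093 and 2348 CPM in IR_30d (log2 change -1.33 ± 0.25, adjusted p = 0.0065), with day 30 lower than day 4 and than NT, which held 10365, 6023 and 5539.6 CPM. The covariate fit called 14 tubule products higher and the reduced fit 15.

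A minority of p53 targets fell. Of 38 tested 10 fell and 0 rose, beside 1.99% of all genes that fell, with a median of -0.22 that was -0.12 without IR_30d replicate 1 and -0.34 in the reduced fit. The median of IR_4d minus NT was 1.01 and that of IR_30d minus NT 0.76, and the NT mean was below both irradiated means for 32 of the 38. Aen, an exonuclease of p53-dependent apoptosis, was at 45.4, 51.7 and 46.1 CPM in IR_4d, 23.3, 26.4 and 26.5 CPM in IR_30d and 9.65, 11.5 and 10.9 CPM in NT (log2 change -0.91 ± 0.09, adjusted p = 1.26e-05). Phlda3, an inhibitor of AKT, was at 47.8, 59 and 57.4 CPM, 30.9, 37.7 and 34.4 CPM and 11, 12.7 and 15.8 CPM in the same order (log2 change -0.67 ± 0.12, adjusted p = 0.00265). The 3 groups did not overlap in either gene.

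Ckap2, a microtubule protein on the p53 list, fell by 1.21 on the log2 scale (adjusted p = 0.00253). Eda2r, a death receptor of the TNF family, was at 37.4, 32.5 and 30.4 CPM in IR_4d and 20.8, 19.2 and 22.9 CPM in IR_30d (log2 change -0.67 ± 0.14, adjusted p = 0.00561), without overlap. It did not pass in the covariate and reduced fits (adjusted p up to 0.235). Bax, which opens the mitochondrial outer membrane, was at 22.4, 20.2 and 23.5 CPM and 17.2, 14.6 and 18 CPM (log2 change -0.41 ± 0.10, adjusted p = 0.0248). The groups were apart, but the call was lost without IR_4d replicate 1 or 3, without IR_30d replicate 1 or 2 (adjusted p up to 0.129), and in the reduced fit (0.148). Cdkn1a, the cell cycle inhibitor p21, was at 44.1, 64.1 and 60.3 CPM in IR_4d and 24.9, 45.8 and 31 CPM in IR_30d, against 2.92, 1.76 and 3.03 CPM in NT, and its difference between days did not pass (log2 change -0.73 ± 0.21, adjusted p = 0.0586). Its day 30 and day 4 values overlapped. Gdf15, a stress cytokine, was at 35.8, 29.4 and 35 CPM on day 4 and 35.1, 52 and 38.2 CPM on day 30 (log2 change 0.32 ± 0.32, adjusted p = 0.657), and its groups overlapped too. The list's count was 5 in the covariate fit, 3 in the reduced fit, 6 without IR_4d replicate 2 or IR_30d replicate 3, and 5 without IR_4d replicate 3 or IR_30d replicate 1.

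**Figure D4:**
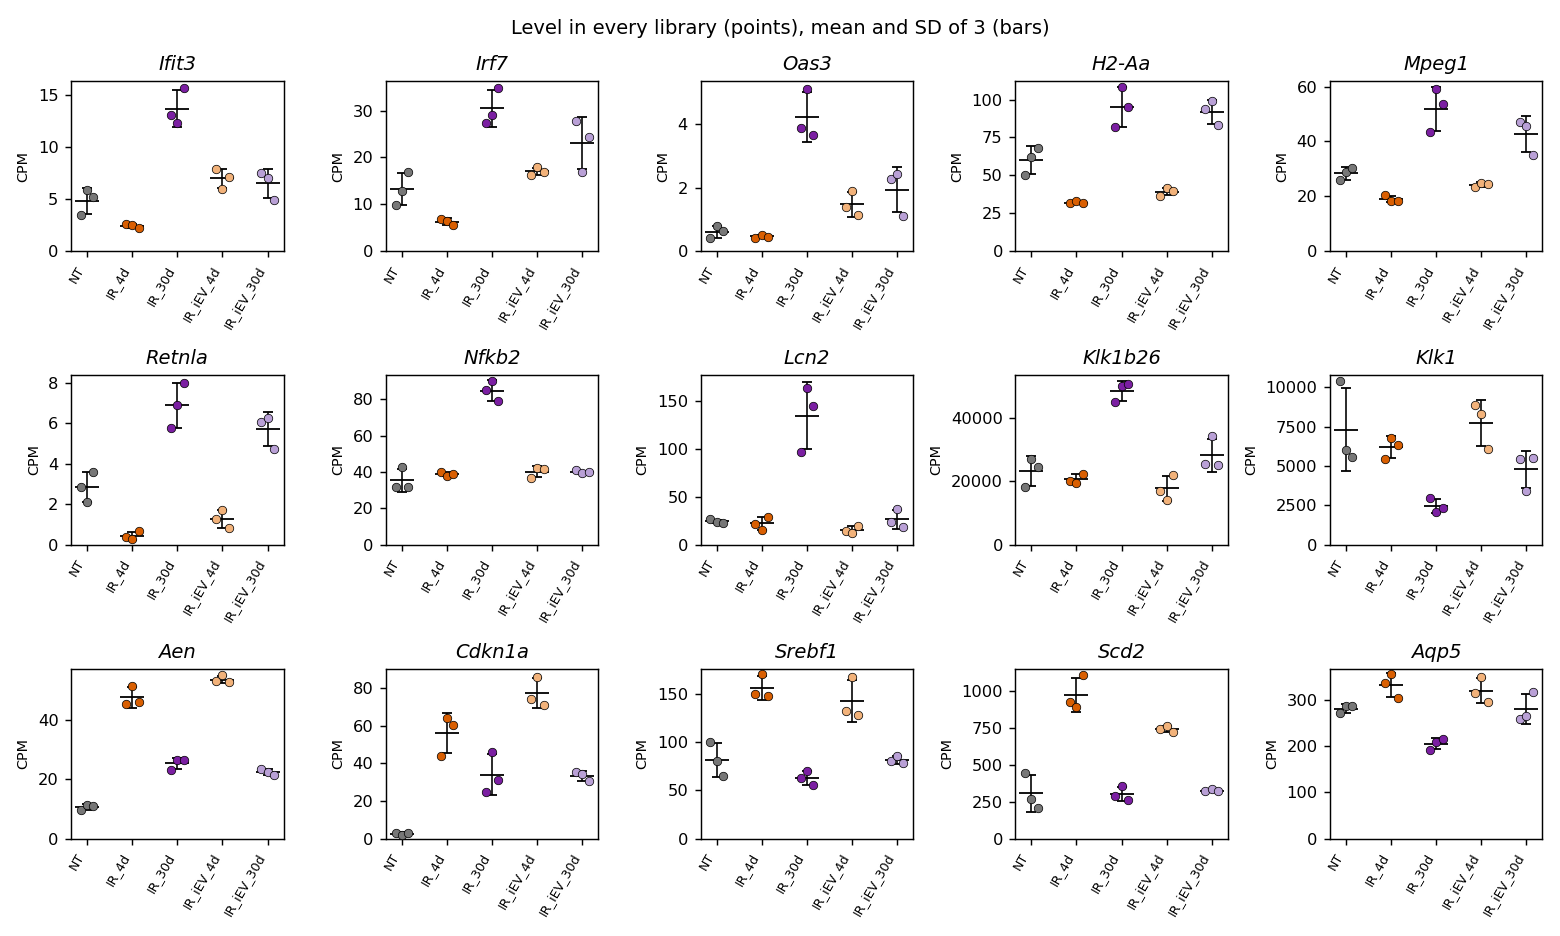
Level in CPM of 15 genes in every library of the 5 groups, with points for libraries and bars for the mean and SD of 3. Ifit3, Irf7, Oas3, Nfkb2 and Lcn2 are highest in IR_30d, H2-Aa and Retnla are high in both day 30 groups, and Aen, Srebf1 and Scd2 are high in both day 4 groups.

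Lipid synthesis genes had a negative median of -0.71, but of 34 tested 3 fell and 0 rose, beside 1.99% of all genes that fell. The median was -0.45 without IR_4d replicate 3 and -0.42 in the covariate fit. Srebf1, the transcription factor that drives fatty acid synthesis genes, was at 150.2, 171 and 147 CPM in IR_4d and 63.3, 69.9 and 55.2 CPM in IR_30d (log2 change -1.31 ± 0.14, adjusted p = 4.09e-05). Scd2, a fatty acid desaturase, was at 927, 895 and 1107 CPM and 287, 359 and 261 CPM (log2 change -1.69 ± 0.21, adjusted p = 3.46e-04). Day 4 libraries were higher than every day 30 and every NT library for both genes, with Scd2 at 447, 266 and 210.2 CPM in NT. Acly, which makes cytosolic acetyl-CoA, fell by 0.87 on the log2 scale (adjusted p = 0.0187), and its call was lost without IR_4d replicate 3 or any 1 of the IR_30d libraries (adjusted p up to 0.0871). IR_4d replicate 3, the library highest in adipose markers, was also the highest for Scd2 and Acly. In the covariate fit Srebf1 and Scd2 passed and Acly did not, and over all alternatives the change of Acly ran from -1.24 to -0.66. The count of falls was 7 with DESeq2 and 6 in a fit of the 2 groups alone. The reduced fit rests on IR_4d replicate 3 alone, the highest of the 6 libraries in adipose markers, and its count is not given.

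Acinar genes changed in both directions. Of 22 tested genes of fluid secretion 1 rose and 2 fell, with a median of -0.02, where 4.81% of all genes rose and 1.99% fell. The count of falls was 1 in the reduced fit, with the replicate number as a block, and without IR_4d replicate 2 or any 1 of the IR_30d libraries. Aqp5, the water channel of the acinar cell's luminal membrane, was at 337, 358 and 305 CPM in IR_4d, 192, 210.0 and 216 CPM in IR_30d and 271, 288 and 286 CPM in NT (log2 change -0.69 ± 0.10, adjusted p = 4.33e-04). The day 30 libraries were lower than all libraries of both other groups. Ano1, the calcium-activated chloride channel, fell by 0.41 on the log2 scale (adjusted p = 0.038), a call lost without any 1 of IR_4d replicates 2 and 3 and the 3 IR_30d libraries (adjusted p up to 0.174), in the covariate and reduced fits, and with the replicate number as a block. Of 22 acinar products and identity genes 1 rose and 3 fell, with a median of -0.28. These falls numbered 0 without IR_4d replicate 2 or IR_30d replicate 3, and 1 in the covariate and reduced fits and without IR_4d replicate 1 or IR_30d replicate 1 or 2. They numbered 6 with DESeq2 and 9 in a fit of the 2 groups alone.

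Duct genes changed in both directions. Of 23 tested genes of duct ion transport 1 rose and 4 fell, with a median of -0.14, where 4.81% of all genes rose and 1.99% fell. The count of falls was 2 in the covariate fit and without IR_4d replicate 2 or any 1 of the IR_30d libraries, and 8 in a fit of the 2 groups alone. Kcnj16, a potassium channel, was at 101, 87.2 and 101 CPM in IR_4d and 181, 186 and 176 CPM in IR_30d (log2 change 0.91 ± 0.16, adjusted p = 0.00316). Foxi1, the transcription factor of ionocytes and other acid-secreting cells, was at 32.3, 36.5 and 38.9 CPM and 22.5, 21.2 and 21 CPM (log2 change -0.73 ± 0.13, adjusted p = 0.00293). Both genes separated the days without overlap. Vegfa, the vascular growth factor, rose from 539, 482 and 567 CPM to 833, 1001 and 853 CPM (log2 change 0.76 ± 0.14, adjusted p = 0.00341), while of 28 endothelial markers 0 passed (median -0.13).

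The largest falls outside the lists included Crabp1, a retinoic acid-binding protein, from 4.79, 5.04 and 6.29 CPM to 0.725, 1.52 and 0.779 CPM (log2 change -2.41 ± 0.29, adjusted p = 1.07e-04). Mmp9, a gelatinase on the neutrophil list, went from 4.7, 5.46 and 2.94 CPM to 1.03, 0.574 and 0.389 CPM (log2 change -2.73 ± 0.50, adjusted p = 0.00406). In both genes the day 30 libraries were all lower. Of the 12 listed neutrophil markers only 2 were tested, and the other had a positive change of 1.44 that did not pass. Nr1d1, a repressor of the circadian clock, was at 69.8, 74.5 and 97.5 CPM in IR_4d and 19.8, 10.9 and 7.01 CPM in IR_30d (log2 change -2.68 ± 0.65, adjusted p = 0.0341), and NT varied from 26.3 to 128 CPM. Its call was lost without any 1 of the 6 libraries (adjusted p up to 0.132), with limma-voom, with the replicate number as a block, in the covariate fit and in the reduced fit (0.259). The hour of collection is not given in the labels, and its part in this fall was not tested.

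Glands that also received iEVs went through the same interval with no library in common. In IR_iEV_30d against IR_iEV_4d, 693 genes rose (4.32%) and 634 fell (3.95%). Genes that rose without iEVs also rose with them in 240 cases, 31.1% of the list without and 34.6% of the list with iEVs. For falls the overlap was 128 genes, 40% and 20.2% of the respective lists, and 1 gene was called in opposite directions. Of the 772 genes that rose without iEVs, 693 also had a positive change with iEVs, with a median of 0.42, and of the 320 that fell, 307 had a negative one, with a median of -0.40.

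List by list, of the 58 interferon-stimulated genes 2 rose with iEVs, with a median change of 0.06. Of the 16 guanylate-binding genes 0 passed with iEVs by edgeR, with a median of 0.18. For MHC class II 9 of 10 rose, with a median of 1.24, and for T and NK markers 11 of 25, with a median of 1.60. Macrophage markers rose in 6 of 35 and tubule products in 6 of 19. Of the 38 p53 targets 15 fell and 2 rose. These counts do not show that a list's change differed, which was tested gene by gene.

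The test of the difference between both changes called 20 genes (0.125%), all with a more positive change without iEVs and 0 with a more negative one. At an unadjusted p under 0.05 there were 1452 genes; limma-voom called 19 in all and DESeq2 119. Of the 20, 9 were on the interferon list, which had a median difference of 1.29. Ifit3 had the smallest adjusted p: its iEV libraries held 7.86, 5.99 and 7.06 CPM on day 4 and 7.53, 7.02 and 4.93 CPM on day 30, overlapping each other (difference 2.60 ± 0.28, adjusted p = 7.87e-04). Oas2 differed by 2.64 ± 0.37, adjusted p = 0.00395, and in both genes the call held under every alternative run. Nfkb2 had iEV values of 36.6, 42.3 and 41.4 CPM on day 4 and 40.9, 39.5 and 39.8 CPM on day 30, and a difference of 1.12 ± 0.14, adjusted p = 0.00149. Cfb differed by 1.82 ± 0.22, adjusted p = 0.00149, Rtp4 by 2.31 ± 0.29, adjusted p = 0.00149, Sdc3 by 1.32 ± 0.17, adjusted p = 0.00149 and Hsd11b1 by 1.51 ± 0.20, adjusted p = 0.00401. For Nfkb2, Cfb, Rtp4, Sdc3 and Hsd11b1 the call was lost in the reduced fit, with adjusted p up to 0.307, and in none of the omissions of a single library.

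Neighbouring tissue varied among the libraries with iEVs as well. Both day 4 groups held libraries high and low in sublingual markers, with 8207, 3015 and 29.97 CPM in IR_4d. On day 30 IR_iEV_30d replicate 2 was high and no IR_30d library was. Sublingual markers summed to 42.17, 2913 and 4629 CPM in IR_iEV_4d and to 2.394, 3884 and 3.264 CPM in IR_iEV_30d, and adipose markers to 320.4, 743.9 and 165.1 CPM and to 158.9, 174.3 and 191.8 CPM. The covariate fit called 10 genes for the difference and the reduced fit 7, of which 2 were among the 20. The count was 9 without IR_30d replicate 2 and 12 without IR_30d replicate 3.

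**Figure D5:**
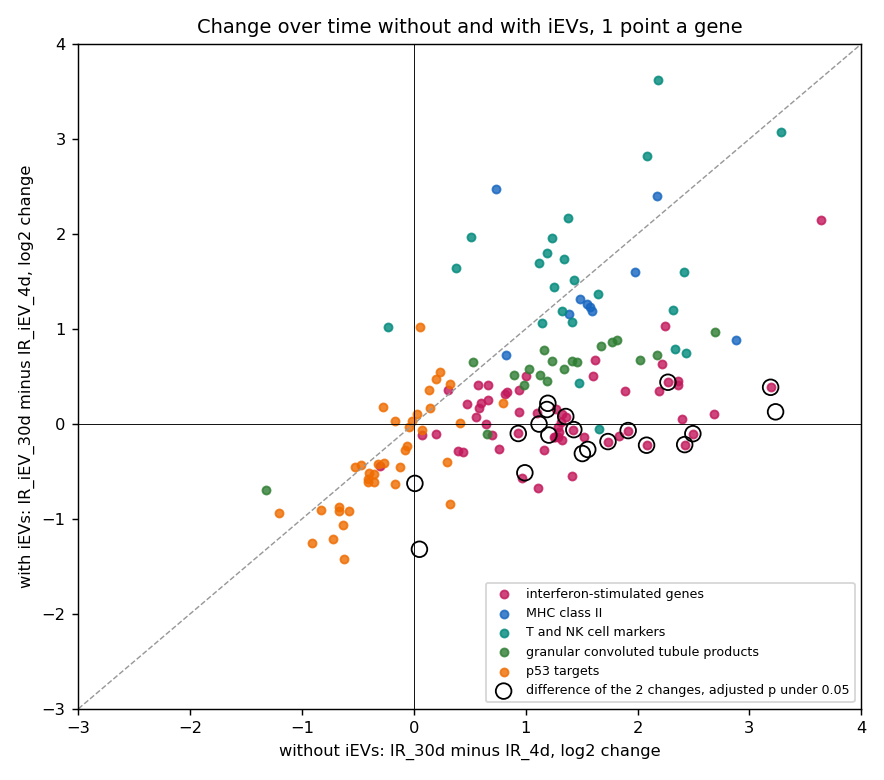
Log2 change from day 4 to day 30 without iEVs (horizontal) against the change with iEVs (vertical) for the tested members of 5 lists, leaving out Ccr7, with the 20 genes whose difference passed circled and equal changes on the dashed line. Interferon-stimulated genes spread to the right near 0 on the vertical axis, MHC class II genes lie high on both axes, and p53 targets lie mostly in the lower left.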

How the data were processed

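RNA of whole submandibular glands was sequenced in 15 libraries, 3 in each of 5 groups. Per the labels' protocols RNA was extracted with TRIzol and libraries were made with a directional RNA-seq kit. The authors deposited raw read counts per gene symbol in 1 table for all libraries. The tools TopHat, HTSeq and DESeq2 and the build GRCm39 are named in the submitters' processing notes; versions, the annotation, the strand setting and the treatment of reads with several matches are not given in the sources used here. Total counts ran from 29082798 to 52201098.

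The deposited counts of all 15 libraries were fitted in 1 model with R 4.3.3 and edgeR 4.0.16 (scaling by TMM, filterByExpr with a minimum count of 10 and a minimum total of 15, robust quasi-likelihood test, 10 residual degrees of freedom). Of 21013 genes 4971 were removed by the filter and 16042 were tested, with Benjamini-Hochberg adjustment over all of them. The groups were compared as IR_30d minus IR_4d, as the same difference with iEVs, and as the difference of both. The numbers of the replicates were not used as pairs. DESeq2 1.42.0, limma 3.58.1 (voom), other scalings, filters and fits, and omission of libraries served as alternatives. Only the main edgeR comparison of IR_30d with IR_4d was tested on simulated counts, which did not model neighbouring tissue. The other fits were not tested in this way. Figures were drawn with matplotlib 3.10.9.

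The members and the 44 gene lists were chosen with earlier results of these data known. Lists are described by counts and medians, without a test of the list. Genes were named as the 12 largest rises and 12 largest falls among called genes without overlap and with a mean of at least 2 CPM, leaving out predicted, clone, immunoglobulin, T cell receptor and mitochondrial genes, as the called members of lowest p in each list, at most 5, as 10 genes whatever their p, and as the 5 largest differences between the changes with and without iEVs in each direction. The text names a part of these, and some results are not reported here. The promoter windows come from RefSeq tables of GRCm38.p6, a different build from that of the counts, and were used for sequence alone.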

Additional observations from a re-analysis of the deposited data

Results flagged for a closer look

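For 20 genes the change from day 4 to day 30 differed between glands without and with iEVs by edgeR's test of the difference itself. The differences below are log2 changes without iEVs minus log2 changes with iEVs. Among interferon-stimulated genes they were 2.60 for Ifit3, 2.64 for Oas2, 2.80 for Oas3, 2.31 for Rtp4, 1.99 for Cmpk2, 1.92 for Ifit1, 1.83 for Irf7, 1.28 for Bst2 and 1.03 for Ifitm3. Ifi206 of the p200 family had 3.11 and Gbp3, a guanylate-binding protein, 1.82. Among macrophage and complement genes the differences were 1.49 for Siglec1, 1.04 for C1qa, 0.98 for C1qb and 1.82 for Cfb. Further genes were Hsd11b1 with 1.51, Sdc3 with 1.32 and Nfkb2 with 1.12. Ccdc80, a matrix protein, had 1.37, and Slc39a14, a zinc and iron importer, 0.64.

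The calls for Ifit3 and Oas2 held under every alternative run. The reduced fit rests on 1 library in each day 4 group, IR_4d replicate 3 and IR_iEV_4d replicate 1. In the reduced fit the calls for the other 18 were lost, with adjusted p from 0.0647 for Irf7 to 0.85 for Slc39a14. In the covariate fit those for Oas3, Bst2, Ifitm3, Ifi206, Gbp3, Siglec1, C1qa, C1qb, Ccdc80 and Slc39a14 were lost, and with limma-voom those for Oas3 and Ifi206. With 1 library left out, Ifitm3 was lost in 9 of 12 omissions (adjusted p up to 0.142). Ifi206 was lost without IR_4d replicate 1 or 2, IR_iEV_4d replicate 3, or IR_30d replicate 2 or 3, and Oas3 without IR_4d replicate 1 or 3, IR_iEV_4d replicate 2 or IR_30d replicate 2 (adjusted p up to 0.0815 for both). C1qb was lost without IR_4d replicate 2 or 3, IR_iEV_4d replicate 3, or IR_30d replicate 2 or 3, and C1qa without IR_4d replicate 3 or IR_30d replicate 2 or 3 (adjusted p up to 0.0834 for both). The same 3 omissions ended the call for Siglec1 (adjusted p up to 0.0662). Cmpk2 was lost without IR_iEV_4d replicate 3 or IR_30d replicate 2 or 3 (adjusted p up to 0.0797). Bst2 and Gbp3 were lost without IR_30d replicate 2 (adjusted p = 0.0537 and 0.0573).

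Ccdc80 and Slc39a14 stand apart from the other 18. Ccdc80 was at 9.93, 9.15 and 11.9 CPM in IR_4d and 8.94, 10.6 and 12.5 CPM in IR_30d (log2 change 0.05 ± 0.16, adjusted p = 0.917), and its change with iEVs was -1.32 (adjusted p = 3.36e-04). Slc39a14 was at 43, 46.4 and 47.7 CPM and 43.2, 48.3 and 46.4 CPM (log2 change 0.01 ± 0.08, adjusted p = 0.971), and its change with iEVs was -0.63 (adjusted p = 4.77e-04). Both overlapped between the days without iEVs, and both fell with iEVs. Over all alternatives the difference ran from 1.03 to 1.49 for Ccdc80 and from 0.46 to 0.68 for Slc39a14. Both calls were lost with the replicate number as a block. The call for Ccdc80 was lost without IR_4d replicate 1 or 2, IR_iEV_4d replicate 2, or IR_30d replicate 2 or 3 (adjusted p up to 0.0834), and that for Slc39a14 without 10 of the 12 irradiated libraries taken singly (adjusted p up to 0.157).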

How the results depend on the processing

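The 1092 changed genes, 772 higher and 320 lower, became 2280, 1377 and 903 in a fit of the 2 groups alone, 525, 417 and 108 in the covariate fit, and 374, 260 and 114 in the reduced fit, in which IR_4d is 1 library and fewer libraries set the spread. DESeq2 called 521 lower and limma-voom 276. Leaving out 1 library in turn gave 536 to 718 changed, 427 to 538 higher and 109 to 181 lower, fewer in each case with fewer libraries. For the difference between the changes without and with iEVs, 20 genes became 119 with DESeq2, 29 in the fit of its groups alone, 10 in the covariate fit, 7 in the reduced fit and 9 to 29 without 1 library. Scaling by DESeq2 size factors or the upper quartile, no filter on low counts and a minimum mean of 5 CPM kept the counts of changed, higher and lower genes within 1.5 times. The planned omission at a sublingual cutoff of 2 was not run, since it leaves no IR_4d library; the cutoff of 5 was chosen after seeing the data.

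A fit with the replicate number as a block called 956 genes, 692 higher and 264 lower, and 20 for the difference. Same-numbered IR_4d and IR_30d libraries did not deviate together (correlations -0.0606, -0.0912 and -0.000772), so the numbers are not taken as pairs.

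Over the genes named by rule, 2148 gene values under alternatives kept direction and side of the threshold, 388 lost the call, 8 gained it and 11 changed sign. Those that changed sign did not pass between the days in the first place. Adipoq went to 0.18 with limma-voom, 1.07 in the covariate fit and -1.57 to 1.03 without 1 library (1.03 without IR_4d replicate 3), Bpifa2 to 0.86 and Dcpp3 to 0.58 in the covariate fit. Ccdc80 went to -0.16 in the reduced fit, -0.026 without IR_4d replicate 2 and -0.080 without IR_30d replicate 3, with 0.16 as its highest value without 1 library. Slc39a14 went to -0.062 in the reduced fit, -0.027 without IR_4d replicate 1 and -0.028 without IR_30d replicate 2, with 0.052 as its highest. Adipoq and Dcpp3 belong to the marker lists whose levels are the covariates, so the covariate fit adjusts them partly for themselves. The cause of the sign changes was not tested. Genes near or under 1 CPM, such as the T cell markers, rest on few counts in each library.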

Other observations

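Stress and metabolic lists differed in how many members changed between the days, where 4.81% of all genes rose and 1.99% fell. Of 78 cytosolic ribosomal protein genes 0 passed by edgeR. Of 77 nuclear genes of oxidative phosphorylation 4 fell and 0 rose; Atp5g1, a subunit of ATP synthase, was at 75, 89.6 and 83.9 CPM in IR_4d and 58.9, 62.5 and 59.9 CPM in IR_30d (log2 change -0.45 ± 0.09, adjusted p = 0.00581). The groups were apart. A fit of the 2 groups alone called 25 of these genes lower, and 2 were called lower in the covariate fit, in the reduced fit and without IR_4d replicate 2 or 3. Of 53 DNA repair genes 0 rose and 1 fell. Of 49 extracellular matrix and fibroblast genes 1 rose and 3 fell between the days without iEVs, against 1 and 22 with iEVs, where 4.32% of all genes rose and 3.95% fell, and 0 genes of this list passed the test of the difference. The 3 falls became 0 in the covariate and reduced fits and without IR_4d replicate 2 or 3 or IR_30d replicate 3, 1 without IR_30d replicate 1 or 2 and with genes of at least 5 CPM, and 7 in a fit of the 2 groups alone.

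Sel1l, an adaptor of protein quality control in the endoplasmic reticulum, was the 1 of 38 unfolded protein response and secretion genes that rose, from 599, 562 and 604 CPM to 849.8, 908 and 827 CPM (log2 change 0.55 ± 0.09, adjusted p = 0.00157), while 3 members fell. These falls became 0 in the covariate and reduced fits and without IR_4d replicate 1 or 2 or IR_30d replicate 1 or 3, and 8 in a fit of the 2 groups alone. On the list of ATF4 and amino acid stress genes 5 of 29 rose and 2 fell. Psat1, of serine synthesis, was at 12, 10.6 and 11 CPM in IR_4d and 23.7, 15.1 and 22 CPM in IR_30d (log2 change 0.85 ± 0.17, adjusted p = 0.00642), and Mthfd2, of mitochondrial folate metabolism, at 20.5, 19 and 18.1 CPM and 41.7, 24.9 and 33.7 CPM (log2 change 0.80 ± 0.16, adjusted p = 0.00465). Both separated the days, and neither passed in the covariate and reduced fits (adjusted p up to 0.144 for Psat1 and 0.207 for Mthfd2). In these fits 0 of the 29 rose, and without 1 library 2 to 5 rose and 1 fell.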
